A study of Mus musculus with 9 samples.

Results

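The 8 genes described here encode enzymes that build cholesterol: Hmgcs1, Idi1, Fdps, Fdft1, Sqle, Cyp51, Msmo1 and Dhcr7. They were chosen by name, with earlier results of these data known, so their counts and medians below are descriptions. On one Affymetrix array design they are 8 of the 8251 genes named, and on the other 8 of the 8220. There they have 11 of 12488 and 9 of 12654 probe sets (a probe set is the group of short oligonucleotides that reads one transcript). Although they were proposed as synthesis and uptake genes, all 8 are synthesis enzymes, so uptake genes are described as a separate list. RNA came from day 10 dendritic cells of mice labelled CIITA-/-, IAb-/- and wild-type B6, with 3 arrays per group, numbered as experiments 1 to 3. CIITA is the activator that switches on the MHC class II genes, and the label IAb-/- points to H2-Ab1, which encodes a class II beta chain. Experiments 2 and 3 (6 arrays) share one design and experiment 1 (3 arrays) has the other, so each group has 2 arrays in the fit and 1 beside it. The labels give no age, sex, culture method or targeting construct, and no sign of whether arrays came from separate mice, so every p-value here reflects array-to-array spread that may be technical. One CIITA-/- title holds no experiment number and was counted as experiment 2, the number left in its group.

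Cholesterol is made from acetyl-CoA through mevalonate, isoprenoids, squalene and lanosterol, and the isoprenoid stage also feeds protein prenylation. When sterols in the endoplasmic reticulum run low, the escort protein Scap carries the transcription factor SREBP-2 (gene Srebf2) to the Golgi, where proteases release it to switch on these enzyme genes. Loaded cells instead retain SREBP-2 through Insig proteins and export sterol through Abca1 and Abcg1. In macrophages and dendritic cells this balance shapes membrane composition and responses to microbial and interferon signals.

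Promoter sequences were at hand in RefSeq (GRCm38.p6) for 5 of the 8 genes, and not for Sqle, Fdps and Fdft1. The 250 bases before the start site of Hmgcs1, Idi1 and Cyp51 are shown because these genes read lower in IAb-/- than in B6 in all 3 experiments (for Hmgcs1 not in experiment 3 with spike-in scaling). Capitals mark the sterol regulatory element core TCACNCCAC, the CCAAT box CCAAT bound by NF-Y and the Sp1 box GGGCGG, on either strand, with no overlap between motifs. The windows run 5′ to 3′ on the gene's strand, at chr13:119690101-119690350 (plus) for Hmgcs1, chr13:8885356-8885605 (plus) for Idi1 and chr5:4104698-4104947 (minus) for Cyp51.
Hmgcs1: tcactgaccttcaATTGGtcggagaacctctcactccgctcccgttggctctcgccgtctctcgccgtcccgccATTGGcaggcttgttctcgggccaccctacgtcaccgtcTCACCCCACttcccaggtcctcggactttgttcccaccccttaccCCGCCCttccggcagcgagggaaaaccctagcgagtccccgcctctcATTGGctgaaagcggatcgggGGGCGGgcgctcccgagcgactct
Idi1: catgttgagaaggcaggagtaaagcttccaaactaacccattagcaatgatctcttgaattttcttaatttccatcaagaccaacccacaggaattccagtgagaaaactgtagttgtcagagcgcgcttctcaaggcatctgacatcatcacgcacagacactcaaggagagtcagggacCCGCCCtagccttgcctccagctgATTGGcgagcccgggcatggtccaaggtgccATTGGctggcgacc
Cyp51: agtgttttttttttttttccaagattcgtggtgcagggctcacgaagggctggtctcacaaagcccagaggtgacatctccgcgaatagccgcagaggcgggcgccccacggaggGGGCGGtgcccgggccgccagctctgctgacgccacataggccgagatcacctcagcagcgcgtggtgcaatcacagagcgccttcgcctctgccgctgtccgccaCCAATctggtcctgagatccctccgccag
The Hmgcs1 window holds 1 sterol element core, TCACCCCAC, with its first base 137 bases before the start site, and 3 CCAAT and 2 Sp1 boxes. The Idi1 window holds 2 CCAAT boxes and 1 Sp1 box, and the Cyp51 window 1 of each, with no match to the sterol element letters in either. Over the 32851 promoters of the table, 1.05% hold the sterol element core in the same window, 33.8% the CCAAT box and 32.7% the Sp1 box. The Msmo1 window holds 3 CCAAT and 2 Sp1 boxes, and Dhcr7 has 3 listed start sites, of which one holds 2 CCAAT and 3 Sp1 boxes.

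The arrays of experiments 2 and 3 read as dendritic cells. All 10 markers fixed for them, Itgax, Flt3, Ccr7 and Cd83 among them, lay above the noise limit on all 6 arrays. That limit is the intensity under which 95% of the negative values would fall if their sign were turned. It was 1703 arbitrary units in experiments 2 and 3 and 2209 in experiment 1. Summed, the markers read 484896 to 499367 in CIITA-/-, 424662 to 585002 in IAb-/- and 454792 to 472911 in B6. In experiment 1, on the other design, they summed to 245533 and 279208, against 236399 in B6. There they were not set against the limit one by one. H2-Aa, a class II gene, read -1520 and -2254 on the CIITA-/- arrays and 46977 and 29271 on the IAb-/- arrays, against 51407 and 53578 on the B6 arrays. The H2-Ab1 probe set still read 16070 and 9621 on the IAb-/- arrays, against 17261 and 21348 on the B6 arrays, and in experiment 1 H2-Aa read -1893 and 65738 in CIITA-/- and IAb-/-, against 33825 in B6. The Ciita probe set read 1601 and 1639 on the CIITA-/- arrays and 398 and 644 on the IAb-/- arrays, against 623 and 933 on the B6 arrays. These values lie under the noise limit, and they are highest in CIITA-/-, as in experiment 1 (1822 and 1224, against 1045 in B6). Where these probe sets lie relative to the deletions is not given, so directions rest on the labels. Hybridisation spike-ins relative to the table's mean read 1.36 and 0.75 times on the IAb-/- arrays of experiments 2 and 3, and 0.95 to 1.06 times on the other 4.

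The enzyme genes read lower in both mutant groups than in B6 for most probe sets but none passed the test. Of the 9 member probe sets tested, 8 had a negative log2 difference in CIITA-/- against B6 and 8 in IAb-/- against B6, with 1 positive in each. The medians were -0.47 and -0.45 on the log2 scale, beside 0.01 over all 9308 probe sets tested in either comparison, of which 47.8% and 48.7% were negative. These medians were -0.17 and -0.14 with a generalised log, -0.25 in both without B6 replicate 3, and -0.30 in CIITA-/- without CIITA-/- replicate 2 and -0.19 in IAb-/- without IAb-/- replicate 2. Both comparisons use the same B6 arrays, so they are not separate evidence. In CIITA-/- against IAb-/-, where B6 plays no part, 5 members were negative and 4 positive, with a median of -0.03. No member passed a Benjamini-Hochberg adjusted p of 0.05 in any comparison (limma over all 3 groups, lowest member adjusted p 0.91 in CIITA-/- against B6 and 1 in the other comparisons).

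Few probe sets of any kind passed. Over all probe sets 0.0967% were called in CIITA-/- against B6 (2 higher and 7 lower), 0.0107% in IAb-/- against B6 and 0.0215% in CIITA-/- against IAb-/-, and 0 of 9 members in each comparison is close to that background. At an unadjusted p under 0.05 stood 547, 401 and 423 probe sets, and 0, 1 and 0 members, the single one being Idi1. With the replicate number as a block, limma called 0 probe sets in each comparison (605, 492 and 491 at an unadjusted p under 0.05), and 0 members at either threshold.

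**Figure D1:**
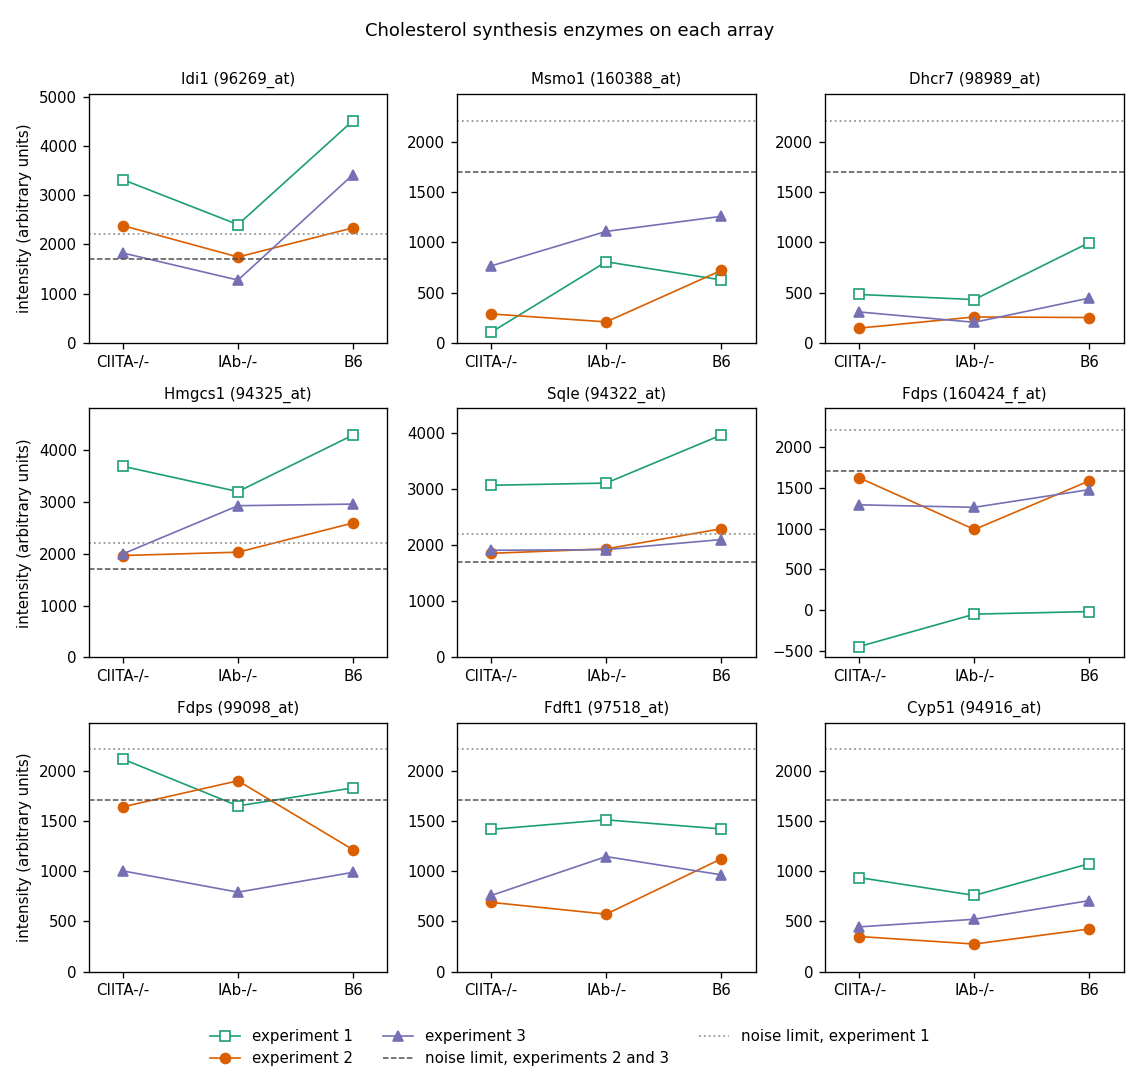
Intensity (arbitrary units, linear axis) of the 9 tested member probe sets on each array, by group, with 1 line per experiment; dashed and dotted lines mark the noise limits, and for Msmo1 and Fdps 160424_f_at the experiment 1 points are the probe set of the same accession on the other design. Hmgcs1, Idi1 and Sqle lie near or above the noise limits and the other genes mostly under them, and the B6 points of Sqle and Cyp51 are the highest in all 3 experiments, which for Sqle does not hold in experiment 3 once arrays are scaled to the spike-ins.

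The first enzyme in order is Hmgcs1, the cytosolic synthase that condenses acetyl units into HMG-CoA. It read 1965 and 1997 on the CIITA-/- arrays of experiments 2 and 3 and 2029 and 2926 on the IAb-/- arrays, against 2592 and 2957 on the B6 arrays. The CIITA-/- arrays did not overlap B6, while the IAb-/- array of experiment 3 read close to B6. With 2 arrays per group a lack of overlap is weak. Its share over all probe sets was not counted, here or for the genes below. The log2 difference was -0.48 in CIITA-/- against B6 (SE 0.22, 95% interval -1.07 to 0.10, limma adjusted p = 0.91) and -0.18 in IAb-/- against B6 (SE 0.22, interval -0.77 to 0.40, adjusted p = 1). In experiment 1 Hmgcs1 read 3687 and 3199 in CIITA-/- and IAb-/-, against 4289 in B6, log2 differences of -0.22 and -0.42.

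Idi1, the isomerase that converts the first isoprenoid unit into its reactive partner, had the widest gap in IAb-/- among the members above noise. It read 2382 and 1826 on the CIITA-/- arrays and 1745 and 1277 on the IAb-/- arrays, against 2337 and 3419 on the B6 arrays. Both IAb-/- arrays lay under both B6 arrays, whereas the CIITA-/- arrays overlapped B6. In IAb-/- against B6 the log2 difference was -0.92 (SE 0.29, interval -1.69 to -0.15, unadjusted p = 0.028, adjusted p = 1, limma), a level 0.528 times that of B6. With values under the noise limit set to it, the difference was -0.71, so its size is not fixed. In CIITA-/- against B6 it was -0.44 (SE 0.29, interval -1.21 to 0.33), and the difference between the mutant groups was 0.48 (interval -0.29 to 1.25, adjusted p = 1).

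Within experiments 1, 2 and 3 the Idi1 difference of IAb-/- against B6 was -0.91, -0.42 and -1.42. Experiment 1 gave 3316 and 2403 in CIITA-/- and IAb-/-, against 4515 in B6. Scaled to the spike-ins the same differences were -0.96, -0.94 and -1.09, so Idi1 read lower in IAb-/- in 3 of 3 experiments on either scale. Fitted over all 9 arrays with the experiment as a block, the estimate was -0.92 (SE 0.22, unadjusted p = 0.0064, adjusted p = 0.92, limma). CIITA-/- lay between the other groups in experiments 1 and 3, and in experiment 2 its log2 difference from B6 was 0.03.

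Fdps makes farnesyl pyrophosphate, where the routes to sterols and to prenylated proteins part, and its probe sets did not give one answer. Probe set 160424_f_at read 1623 and 1292 in CIITA-/- and 990 and 1262 in IAb-/-, against 1586 and 1478 in B6, all under the noise limit. Its log2 difference was -0.08 in CIITA-/- against B6 and -0.45 in IAb-/- against B6 (SE 0.21, adjusted p = 1, limma). Probe set 99098_at had differences of 0.23 and 0.16, the only positive values among the members, and gave 2113 and 1648 in experiment 1, against 1827 in B6. The remaining pair, 162217_r_at and 162281_at, read below 0 on all 6 arrays, between -14477 and -9477 and between -423 and -325, and was not tested. On the other design 98074_at read below 0 as well. A suffix of f marks a probe set whose probes are shared within a gene family, which applies to 160424_f_at and not to 99098_at. The latter lay above the noise limit on 1 of the 6 arrays. Since the tested pair differed in sign and lay mostly under that limit, the Fdps values are uncertain.

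Fdft1, squalene synthase, takes the first step committed to sterols. It read 689 and 758 in CIITA-/- and 572 and 1144 in IAb-/-, against 1122 and 963 in B6, under the noise limit on every array. CIITA-/- lay under B6 without overlap (log2 -0.52, interval -1.47 to 0.42, limma adjusted p = 0.93), while the IAb-/- arrays lay on either side of B6 (-0.36, interval -1.31 to 0.58). In experiment 1 CIITA-/- and B6 were nearly equal, at 1415 and 1420.

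Sqle, squalene epoxidase, is a rate-limiting step of the later pathway and had the tightest values of the members. It read 1857 and 1911 in CIITA-/- and 1936 and 1923 in IAb-/-, against 2295 and 2101 in B6. Neither mutant group overlapped B6, and the 4 mutant arrays lay within 1857 to 1936, close above the noise limit of 1703. Scaled to the spike-ins, the IAb-/- differences from B6 in experiments 1, 2 and 3 were -0.40, -0.77 and 0.20. The log2 differences were -0.22 (SE 0.14, interval -0.58 to 0.14) and -0.19 (SE 0.14, interval -0.54 to 0.17), with limma adjusted p = 0.93 and 1. Experiment 1 gave 3071 and 3110 in CIITA-/- and IAb-/-, against 3967 in B6, log2 differences of -0.37 and -0.35. Between the mutant groups Sqle differed by -0.03 (interval -0.39 to 0.32).

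The last group works on lanosterol and its products, and all of its probe sets read under the noise limit, so their folds are poorly fixed. Cyp51, the demethylase that opens this stage, read 350 and 446 in CIITA-/- and 275 and 522 in IAb-/-, against 425 and 707 in B6, with log2 differences of -0.47 and -0.53 (SE 0.42 each, limma adjusted p = 0.93 and 1). Within every experiment its B6 array was the highest of the 3, with 935 and 759 against 1074 in experiment 1. Groups overlapped across experiments, since experiment 3 read higher than experiment 2 in all 3 groups.

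Msmo1, the methyl sterol oxidase of a later step, read 288 and 766 in CIITA-/- and 209 and 1108 in IAb-/-, against 720 and 1258 in B6. Its log2 differences were -1.02 and -0.98 with an SE of 0.96 each (intervals -3.52 to 1.49 and -3.49 to 1.52). On the other design the probe set of the same accession read 106 and 807, against 627 in B6, so IAb-/- read higher there. Dhcr7, the reductase that ends one of the branches to cholesterol, read 148 and 308 in CIITA-/- and 258 and 205 in IAb-/-, against 253 and 446 in B6. Its differences were -0.66 and -0.55 (SE 0.47 each), and experiment 1 gave 482 and 431, against 998 in B6 (-1.05 and -1.21).

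**Figure D2:**
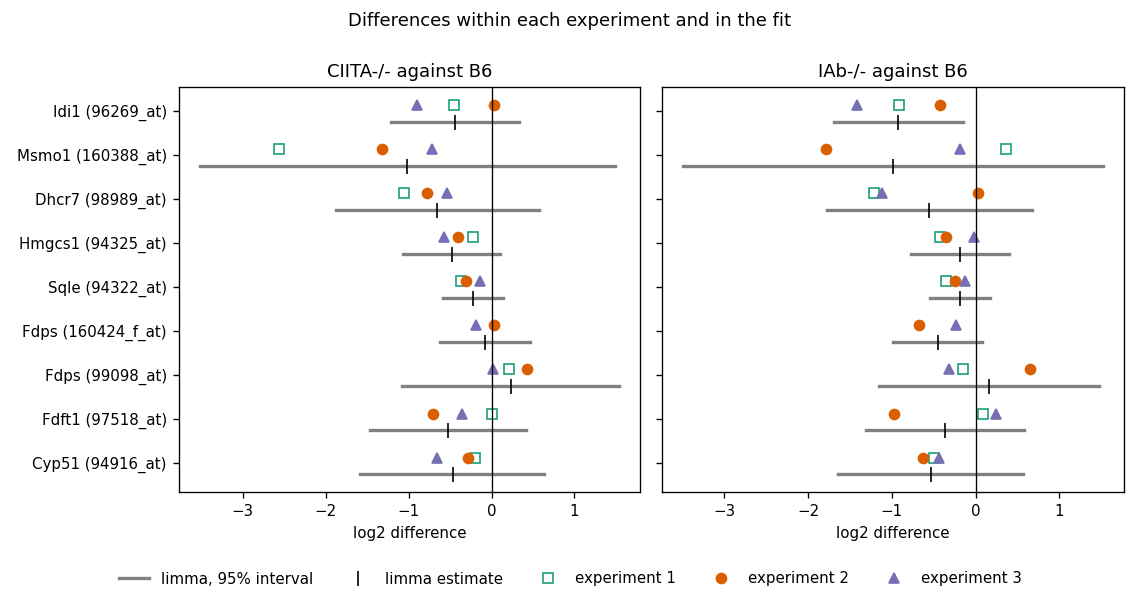
Log2 difference from B6 of the 9 tested member probe sets in CIITA-/- (left) and IAb-/- (right): symbols are single experiments, ticks the limma estimates over experiments 2 and 3, and bars their 95% intervals. Most symbols lie left of 0, and every interval but that of Idi1 in IAb-/- crosses 0.

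Placed among all probe sets tested, the members lay mostly in the lower part of the distribution. In CIITA-/- against B6, 2.44% of probe sets had a lower difference than Msmo1, 9.67% than Hmgcs1, 10.9% than Idi1 and 21.8% than Sqle. In IAb-/- against B6, 2.83% lay under Idi1, 7.34% under Cyp51, 23.2% under Sqle and 23.5% under Hmgcs1. Fdps 99098_at lay in the upper part, with 76.2% and 73.3% under it.

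The sign of each difference was then compared between experiments, each of which holds 1 array per group. Of the 7 member probe sets on both designs, 5 read lower in CIITA-/- than in B6 in each of the 3 experiments (Dhcr7, Hmgcs1, Sqle, Fdft1 and Cyp51), where 12.6% of all 7607 probe sets did so. In IAb-/- the count was 4 of 7 (Idi1, Hmgcs1, Sqle and Cyp51; with spike-in scaling Idi1, Dhcr7 and Cyp51), where 12.1% of all did. Some of these signs rest on near ties, since Fdft1 in CIITA-/- read 1415 against 1420 in B6 in experiment 1 and Hmgcs1 in IAb-/- differed by -0.02 in experiment 3. Hmgcs1 and Sqle, the only members above the noise limit on all 9 arrays, were among both, where 13.2% and 13.5% of the 2872 probe sets above noise on all 9 arrays were so in CIITA-/- and IAb-/-. B6 was the highest of the 3 arrays in every experiment for Hmgcs1, Sqle and Cyp51, where 4.09% of all probe sets had that order; in Hmgcs1 and Sqle it does not hold in experiment 3 with spike-in scaling. The members were chosen with these values known, so the counts are a description.

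The counts moved with the scaling of the arrays. With quantile normalization they were 4 of 7 in CIITA-/- (12.6% of all probe sets) and 5 of 7 in IAb-/- (13.2% of all). With spike-in scaling they were 6 of 7 in CIITA-/- (36% of all probe sets) and 3 of 7 in IAb-/- (6.14% of all). In IAb-/- Hmgcs1 and Sqle left the count, with log2 differences of 0.31 and 0.20 in experiment 3, and Dhcr7 entered it, with -0.49 in experiment 2 against 0.03 on the deposited scale. Idi1 and Cyp51 kept 3 of 3 experiments in IAb-/- under the deposited, quantile and spike-in scales. In CIITA-/- Hmgcs1, Sqle, Dhcr7 and Cyp51 did so under all 3 scales.

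By experiment, the member median in CIITA-/- against B6 was -0.29, -0.31 and -0.54 in experiments 1, 2 and 3, with 7 of 8, 6 of 9 and 8 of 9 probe sets negative. In IAb-/- against B6 it was -0.39, -0.42 and -0.23, with 6 of 8, 7 of 9 and 8 of 9 negative. Medians over all probe sets lay between -0.02 and 0.02 in these 6 cases. The fit over all 9 arrays with the experiment as a block took in the 7 member probe sets on both designs and called 4 of 8145 probe sets in CIITA-/- (0.0491%) and 0 in IAb-/- (0%), with 0 members. At an unadjusted p under 0.05 stood 371 of the 8145 in CIITA-/- and 385 in IAb-/-. Dhcr7, Cyp51 and Sqle stood at an unadjusted p of 0.045, 0.049 and 0.049 in CIITA-/- against B6 (log2 -0.79, -0.38 and -0.27, limma adjusted p = 0.90 each). Cyp51 and Dhcr7 stood at 0.016 and 0.049 in IAb-/- against B6 (log2 -0.52 and -0.77, limma adjusted p = 0.92 each), beside Idi1 above. Over the 4 member probe sets above noise on at least 1 of the 6 arrays the fitted medians were smaller, at -0.33 in CIITA-/- and -0.19 in IAb-/-.

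**Figure D3:**
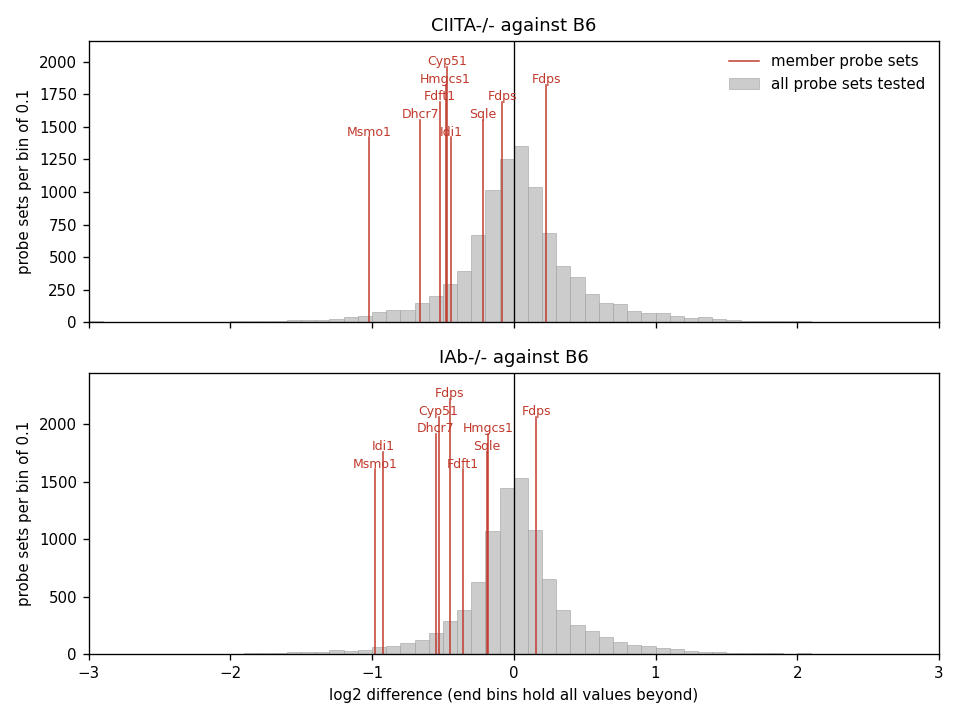
Number of probe sets per 0.1 bin of log2 difference from B6 in CIITA-/- (top) and IAb-/- (bottom), with the 9 tested member probe sets as red lines; the lines' heights carry no value. Most members lie on the left shoulder of the distribution and none in its far tail, and one Fdps probe set lies right of 0 in each.

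Markers of other cell types were read beside these values. Summed over the 9 macrophage markers, of which Cd14, Fcgr1 and Csf1r lay above noise on all 6 arrays and none was at 0 or below on all 6, the level was 17200 to 19069 in CIITA-/- and 16653 to 18066 in IAb-/-, against 13383 to 15416 in B6. In experiment 1 the order was the other way, at 37913 and 39698, against 41311 in B6. The 4 fibroblast markers, of which Col1a2 alone was above noise, summed to 7401 to 8333 and 6232 to 7167, against 5840 to 5971 in B6, and to 397 and 1420, against 889, in experiment 1. The 6 T cell markers, all under the noise limit with Cd3e and Cd5 at 0 or below on all 6 arrays, summed to 862 to 1437 in CIITA-/-, 770 to 1004 in IAb-/- and 570 to 816 in B6, and in experiment 1 to 639 and 965, against 448 in B6. Of 7 neutrophil, 3 NK cell and 2 erythroid markers on the array none lay above noise on all 6 arrays, and of 4 B cell markers only Pax5 did. The neutrophil markers, with Ngp at 0 or below on all 6, summed to 4952 to 5548 in CIITA-/- and 3492 to 4340 in IAb-/-, against 4255 to 4523 in B6, and to 5618 and 7550, against 4476, in experiment 1. The NK cell markers summed to 190 to 478 in CIITA-/- and 537 to 588 in IAb-/-, against 242 to 270 in B6, and to 417 and 448, against 0, in experiment 1. The part of these cells in the enzyme values was not tested, and in such bulk RNA fewer cells of a type and less RNA per cell cannot be told apart.

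No other gene of the pathway passed the test. Of 14 other sterol synthesis genes listed, 9 were tested, and 0 passed in either direction (limma; 1 at an unadjusted p under 0.05 in each comparison with B6). Their median was -0.06 in CIITA-/- and 0 in IAb-/-, with 7 and 6 of 9 negative, and in experiment 1 it was -0.08 and 0.01. Tm7sf2, a sterol reductase, averaged 6781 ± 7 in CIITA-/- and 6385 ± 1378 in IAb-/-, against 6216 ± 113 in B6 (SD, n = 2 each; log2 0.13 and 0.02). Mvk, mevalonate kinase, had differences of -0.06 and 0, and Ebp, a sterol isomerase, of -0.02 and -0.15. Larger differences came from genes under the noise limit, named here after their values were seen. Sc5d, a sterol desaturase, had -0.86 and -0.80, and Hsd17b7, a sterol ketone-reducing enzyme, -0.64 and -0.21. Lss, which makes lanosterol, had -0.40 and -0.18, and Mvd -0.19 and 0.45. Ggps1, which makes the longer isoprenoid for prenylation, had 0.51 and 0.40 and was the gene at an unadjusted p under 0.05 (limma adjusted p = 0.77 and 1). In experiment 1 Sc5d had 1.03 and -0.51, Hsd17b7 0 and 1.46, and Ggps1 0.04 and -1.15, again under the noise limit.

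Of 7 regulators of sterol sensing, 3 had a probe set, and the 2 tested did not pass. Srebf2 and Scap were not analysed here, since no probe set carried either symbol alone. Srebf1, the sister factor of SREBP-2 that favours fatty acid genes, read 3490 and 3325 in CIITA-/- and 4143 and 2849 in IAb-/-, against 2637 and 2773 in B6 (log2 0.33 and 0.35, limma adjusted p = 0.93 and 1). In experiment 1 it read 3539 and 4258, against 4301 in B6. Mbtps1, the protease that makes the first cut in SREBP, had differences of -0.30 and 0.09. Insig1, itself a target of SREBP that retains Scap, read between -28 and 229 on the 6 arrays and was above the floor on 1 of them, so it was not tested.

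No uptake or efflux gene passed the test either. Of 8 uptake genes tested, 5 had positive differences in CIITA-/- and 6 in IAb-/- (medians 0.27 and 0.15), and 0 passed in either comparison (limma; 2 at an unadjusted p under 0.05 in each). In experiment 1 their medians were -0.13 and -0.06. Lipa, the lysosomal acid lipase that frees cholesterol from lipoproteins taken up, read 1348 and 2116 in CIITA-/- and 1633 and 1529 in IAb-/-, against 848 and 983 in B6. All 4 mutant values lay above B6 (log2 0.89 and 0.79, SE 0.26 each, limma adjusted p = 0.77 and 1), but 1 of the 6 arrays lay above the noise limit, so the size of the difference is not fixed. In experiment 1 Lipa read 6502 and 6952, against 7264 in B6, the opposite order. Npc1, which carries that cholesterol out of lysosomes, averaged 14204 ± 78 in CIITA-/- and 14118 ± 1323 in IAb-/-, against 10667 ± 595 in B6 (log2 0.41 and 0.40), with 0.05 and -0.06 in experiment 1. Lrp1, a lipoprotein receptor, had differences of 0.24 and 0.52.

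Among 4 efflux and storage genes tested, 3 were positive in each comparison (medians 0.16 and 0.12) and 0 passed (limma; 1 and 0 at an unadjusted p under 0.05). In experiment 1 the medians were 0.15 and 0, taken over 5 genes. Nr1h3 and Apoe lay under the floor on all 3 arrays there and so counted as differences of 0. Abca1 had 0.25 and 0.71 in that experiment. Another Abcg1 probe set read 612 and 788 there, against 210 in B6, under the noise limit. Ch25h, whose hydroxylated product holds SREBP in the endoplasmic reticulum, read 5158 and 4363 in CIITA-/- and 4395 and 3791 in IAb-/-, against 3559 and 2058 in B6. Its log2 difference was 0.81 in CIITA-/- (SE 0.31, adjusted p = 0.85) and 0.59 in IAb-/- (adjusted p = 1), and 0.15 and -0.06 in experiment 1. Abcg1, a sterol exporter, had differences of 0.18 and 0.14. The 8 fatty acid synthesis genes tested had medians of 0.05 and -0.10 with 0 called (limma; 0 at an unadjusted p under 0.05), among them Fasn, the fatty acid synthase (0.35 in CIITA-/- and -0.11 in IAb-/-, and 0.91 and 1.05 in experiment 1, where all 3 arrays lay under the noise limit), Scd1, a desaturase (0.15 in CIITA-/-), Scd2, its paralog (0.14 in IAb-/-), and Elovl5, an elongase (-0.16 in IAb-/-).

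**Figure D4:**
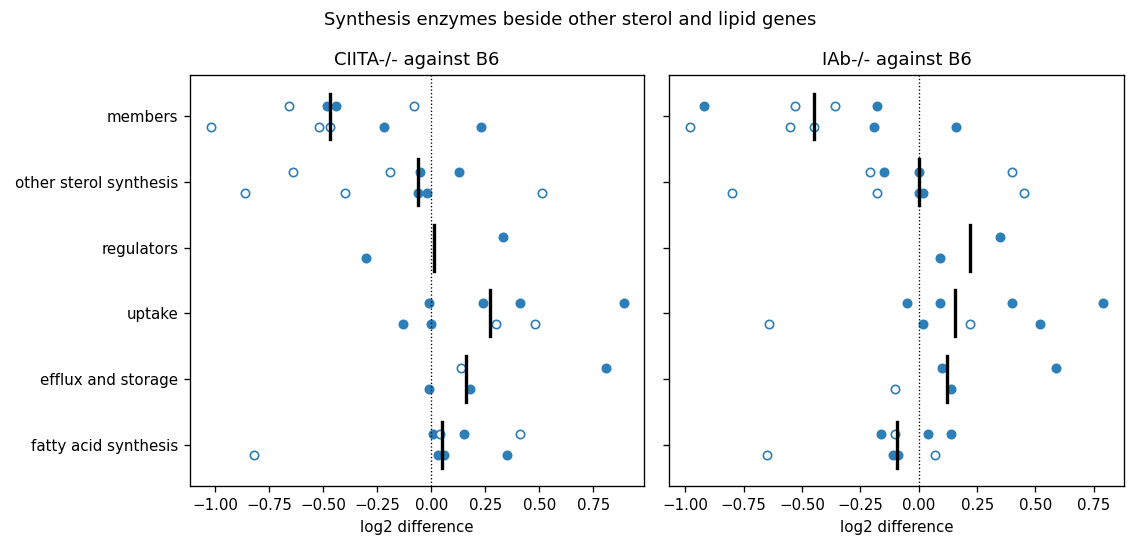
Log2 difference from B6 in CIITA-/- (left) and IAb-/- (right) for the member probe sets and, below, the brightest probe set per gene of 5 other lists; filled points lie above the noise limit on at least 1 of 6 arrays, open ones on none, and black bars are medians. The member medians of -0.47 and -0.45 lie below those of the other lists, which run from -0.10 to 0.27. Over the 4 member probe sets above noise on at least 1 array they are -0.33 and -0.19. The members were chosen with earlier results of these data known, so their place below the other lists is a description.

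A search for probe sets with a like pattern used the mean of Idi1, Hmgcs1 and Sqle, each standardised over the 6 arrays. Among 3298 probe sets above noise on all 6 arrays, the highest Pearson correlations were those of Arf4 (0.995), Tspan9 (0.989), Naca (0.968), Park7 (0.965) and Traf6 (0.963). Tspan9 read 2324 and 2088 in CIITA-/- and 2156 and 2401 in IAb-/-, against 3099 and 3281 in B6. These are descriptions over 6 arrays, which share the 2 high B6 arrays and one scaling.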

How the data were processed

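Each deposited value is the linear intensity of 1 probe set on 1 array. How the authors computed it was not given in the sources used here. In the values as deposited, 21% to 26.4% per array lie below 0, and the 2% trimmed mean lies between 2502.2 and 2502.6 on the 6 arrays of experiments 2 and 3. That scale was kept. Values under the table's 30th percentile (124; 94 in experiment 1) were set to it and log2 was taken. Those exceeding it on 2 arrays or more were fitted with limma 3.58.1 in R 4.3.3 to all 3 groups, adjusted over all 9308 probe sets. No member value used in the fit lay under that floor. Experiment 1 entered only within-experiment differences and the fit over 9 arrays. The number of arrays limits precision.

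The members and lists were chosen with earlier results of these data known. All 8 members are named. From other lists come genes called, the 2 largest differences above noise per comparison with B6, and a few genes fixed by name, of which some are not reported here. Lists use the brightest probe set per gene. Gene symbols are those of the platform annotation. Titles number the experiments, so that number was tried as a block. Deviations of same-numbered arrays correlated at 0.05 (CIITA-/- with B6), 0.08 (IAb-/- with B6) and 0.21 (CIITA-/- with IAb-/-) over probe sets. Other floors, filters and scalings and leaving out each array were tried. Promoter windows hold 250 bases before each start site.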

Additional observations from a re-analysis of the deposited data

How the results depend on the processing

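No member passed the adjusted threshold under any alternative (limma). The lowest member adjusted p was 0.47, for IAb-/- against B6 without IAb-/- replicate 3, and 0 to 2 members stood at an unadjusted p under 0.05 when 1 array was left out. Calls over all probe sets moved more. In CIITA-/- against B6 there were 9, and 4 with the floor at the noise limit, 5 with a generalised log, 14 with no filter, 4 with the filter at the noise limit, 0 with the replicate block and 4 with that block over 9 arrays. In IAb-/- against B6 there was 1, and 5, 0, 5, 0, 0 and 0 under the same settings (the 0 counts had 365, 194, 492 and 385 at an unadjusted p under 0.05), 3 with quantile normalization and 2 with spike-in scaling. In CIITA-/- against IAb-/- there were 2, and 4 with the floor at the noise limit, 7 with no filter, 4 with the filter at the noise limit, 7 with spike-in scaling and 0 with the block. Leaving out 1 array, whose partner was then assumed to vary like the other groups, left 0 to 1, 0 to 0 and 0 to 1 (274 to 813 at an unadjusted p under 0.05).

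Of the members, 8 of 9 kept a lower value in each mutant under other scalings, the generalised log and the block over 6 arrays. The floor or filter at the noise limit left 3 or 4 probe sets to compare, 3 of them lower in each comparison; members flat at that floor gave no value. Those settings gave an IAb-/- median of -0.19, the generalised log -0.14 (CIITA-/- -0.17) and the block over 9 arrays -0.26. Spike-in scaling moved the median of all probe sets to -0.12 in CIITA-/- and -0.08 in IAb-/-; relative to it the members' median was -0.49 and -0.47. Its called probe sets in CIITA-/- split 3 higher and 6 lower, in IAb-/- 1 and 1, and in CIITA-/- against IAb-/- 2 and 5. Leaving out 1 array, the member median ran from -0.58 to -0.25 in CIITA-/-, from -0.63 to -0.19 in IAb-/- and from -0.11 to 0.26 between the mutants. The lower count was 7 to 9 in CIITA-/- and 6 to 8 in IAb-/-, with 6 without IAb-/- replicate 2.

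Single arrays turned some signs. Against B6, without IAb-/- replicate 2, whose spike-ins were brightest, IAb-/- differences ran up to 0.22 for Msmo1, 0.08 for Hmgcs1 and 0.14 for Fdft1, and down to -0.47 for Fdps 99098_at. The other ends, -2.19, -0.45, -0.86 and 0.79, all came without IAb-/- replicate 3, whose spike-ins were dimmest. In CIITA-/- against B6, Fdps 160424_f_at ran from -0.25 to 0.08 and 99098_at from -0.13 to 0.58. Between the mutants the ranges were -1.24 to 1.17 for Msmo1, -0.64 to 0.42 for Dhcr7, -0.57 to 0.70 for Fdps 99098_at, -0.66 to 0.34 for Fdft1 and -0.40 to 0.52 for Cyp51, and the floor at the noise limit gave -0.08 for Fdps 99098_at. Idi1, Sqle, Dhcr7 and Cyp51 kept a negative sign against B6 under every alternative fit that gave a value and without any 1 array. Over single arrays left out, Idi1 in IAb-/- ran from -1.20 to -0.65. Dhcr7 came as near 0 as -0.13 in CIITA-/- and -0.14 in IAb-/-, and Cyp51 as -0.11 and -0.07. The cause of these moves was not tested. Under the noise limit, folds of Cyp51, Msmo1, Dhcr7, Fdft1 and Fdps cannot be sized. Idi1 in IAb-/- has an array under that limit too, so its fold is not fixed.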
